A study of Arabidopsis thaliana with 3 samples.

Results

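Leaf RNA of an Arabidopsis thaliana line whose array is titled MKK2-EE4 was set against leaf RNA of untreated Col-0, the common laboratory accession, which is also the background of the line. All plants were 2 weeks old. The comparison rests on 2 of the 3 arrays of the series, 1 array for each group, so no value has a replicate error and no test across plants could be made. The third array, titled MKK2-w.t.4, is an MKK2 line in the same background, and its signals are given beside the others. Title and source name of the MKK2 arrays contradict each other: the array titled MKK2-EE4 carries the source name of MKK2-W.T.4, and the array titled MKK2-w.t.4 that of MKK2-EE4. The lines are therefore called by their titles, and nothing is said here about the protein that either makes. The labels do not name the promoter, how many transformants there were, how many plants went into an array, or the growth conditions.

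MKK2 is a MAP kinase kinase, the middle kinase of a cascade in which each enzyme switches on the next by phosphorylation. In Arabidopsis it is known to act between the kinase MEKK1 and the MAP kinases MPK4 and MPK6, and it has been studied in cold, salt and pathogen responses. MAP kinase cascades of this kind are also switched on by wounding, touch and microbial molecules, and they act on transcription factors and hormone synthesis. The annotation used here gives no probe set for MKK2, so its transcript was not checked. The annotated part of the cascade list, 1 of 27 genes, was ATMPK13, which lay under a signal of 25 on every array.

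Each probe set, a group of short probes for 1 transcript or a few similar ones, has a signal that stands for its brightness. Before the ratio of the line titled MKK2-EE4 over Col-0 was taken, any signal below 25 was raised to this floor, because dim signals are imprecise. Median signals were 34.2 in the line titled MKK2-EE4, 31.5 in the line titled MKK2-w.t.4 and 35.3 in Col-0, and 42.7%, 45.5% and 42.0% of the probe sets lay under the floor on these arrays. A probe set was counted where its ratio reached 2-fold in either direction. Of 22746 probe sets compared, 214 (0.941%) were higher in the line titled MKK2-EE4 and 122 (0.536%) were lower. At 1.5-fold the counts were 701 (3.08%) and 709 (3.12%). Among the 5651 probe sets with signals of 100 or more on both arrays, the central 95% of ratios ran from 0.649-fold to 1.69-fold of Col-0, a range that holds array noise and real differences together. The 3′ over 5′ signal ratios of the actin, GAPDH and ubiquitin controls, a sign of RNA integrity, ran from 0.966 to 3.83 in the line titled MKK2-EE4 and from 0.816 to 3.75 in Col-0. Of the 6 ratios, 4 were above Col-0 in the line titled MKK2-EE4, and their part in the results was not tested. The hybridisation spike-ins, bacterial and phage transcripts with 18 probe sets above the floor on all arrays, lay below Col-0 at all 18 in the line titled MKK2-EE4, from 0.569-fold to 0.850-fold with a median of 0.664-fold, after scaling to the same trimmed mean. In the line titled MKK2-w.t.4 they ran from 0.705-fold to 1.00-fold of Col-0, 17 of 18 below it. The part of this array-wide difference in the results was not tested either.

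Higher probe sets outnumbered lower ones where signals were bright. Among probe sets with a mean signal of 500 to 2000, 37 were higher and 5 lower in the line titled MKK2-EE4, of 1084. At 100 to 500, 95 were higher and 37 lower, of 4790. Among the 13213 with a mean signal under 50, 28 were higher and 39 lower. Of the 214 higher ones, 25 lay under the floor in Col-0, and of the 122 lower ones, 29 lay under it in the line titled MKK2-EE4, so their ratios are lower bounds. In the plot of all signals the higher probe sets spread away from the diagonal up to signals near 2000, while only 1 of 258 probe sets with a mean signal of 2000 or more lay beyond 2-fold. It was lower than Col-0.

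**Figure D1:**
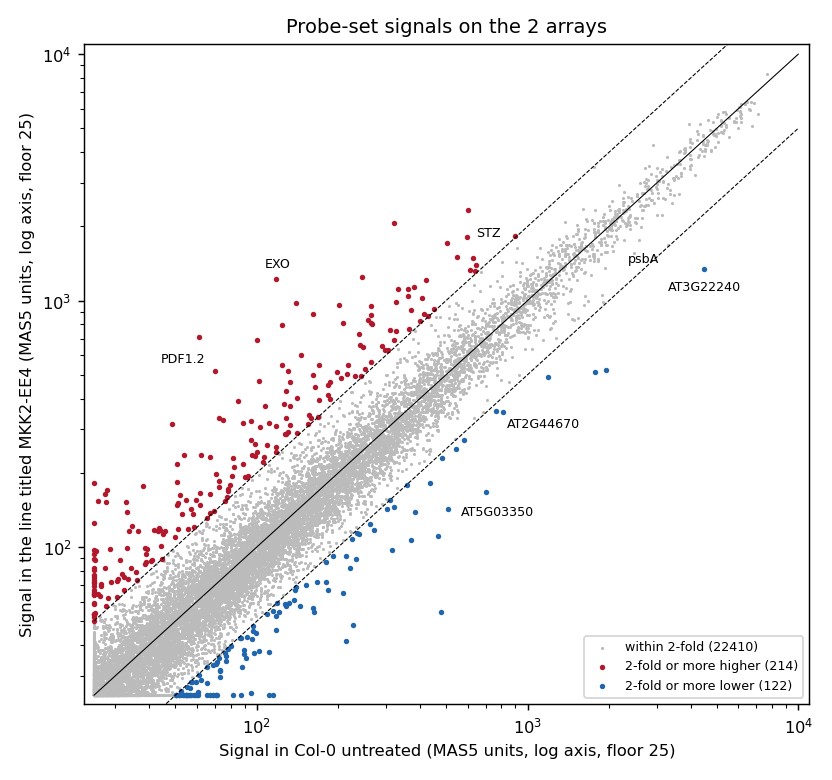
Signal of each of 22746 probe sets in the line titled MKK2-EE4 (vertical, log axis) against Col-0 (horizontal, log axis), with signals under 25 drawn at 25. The solid line marks equal signals and the dashed lines 2-fold; 214 probe sets lie on or above the upper dashed line and 122 on or below the lower.

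A gene name could be given to 13513 of the probe sets, and 8730 carry none in the annotation used here. Of 13355 named genes, taken with 1 probe set each, 90 (0.674%) were 2-fold or more higher in the line titled MKK2-EE4 and 45 (0.337%) were lower. At 1.5-fold, 355 (2.66%) were higher and 349 (2.61%) lower. Among the 3254 named probe sets with a signal of at least 100 on 1 of the arrays, 70 (2.15%) were 2-fold higher and 21 (0.645%) lower, and at 1.5-fold 190 (5.84%) were higher and 131 (4.03%) lower. These shares are the background for the gene groups below. Groups were drawn from pathways and gene families, and a group was described by its counts where 3 or more of its genes have a named probe set. This held for 69 groups, and smaller groups appear only through the number named and single genes. The median log2 ratio was 0 over all probe sets and -0.04 over the 3240 named genes with a signal of at least 100.

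Among the genes furthest above Col-0 were some known for responses to touch, wounding and microbial signals, and for jasmonate defence. The 25 named genes with the highest ratios, all with a signal of at least 100 on 1 of the 2 arrays, lay between 2.99-fold and 10.5-fold above Col-0. Each had a measured Col-0 signal above the floor of 25, but AT5G05600 and CML38 were close to it, at 27.7 and 28.0. EXO, which promotes leaf growth downstream of brassinosteroid, led with signals of 1227 in the line titled MKK2-EE4 and 1602 in the line titled MKK2-w.t.4, against 117 in Col-0. Both MKK2 arrays were set against the same Col-0 array, so a chance deviation of that array enters both ratios of every gene. In leaf RNA, more transcript per cell and more cells of a type that makes it cannot be told apart. In the plot of the 25 genes, both MKK2 arrays stand right of Col-0 in every line, and AT4G27280, which encodes an EF-hand calcium-binding protein, lies furthest right, with 2339 in the line titled MKK2-EE4, 3123 in the line titled MKK2-w.t.4 and 602 in Col-0. The median log2 ratio of the 25 genes, which were picked for it, was 1.95 in the line titled MKK2-EE4 and 1.99 in the line titled MKK2-w.t.4.

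**Figure D2:**
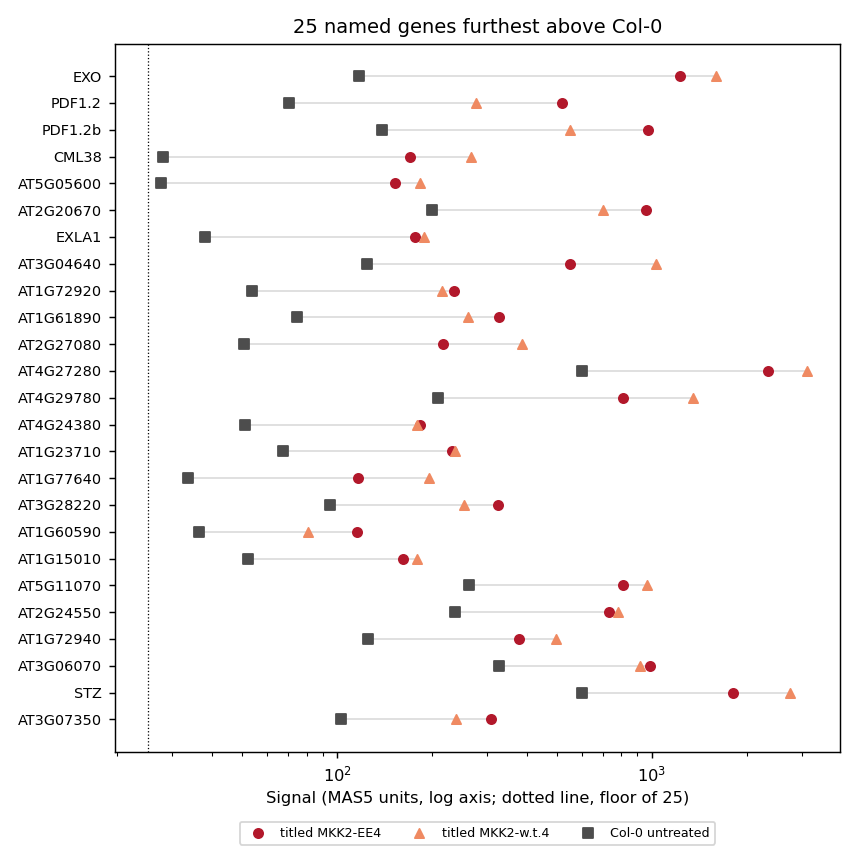
Signals (log axis) of the 25 named genes furthest above Col-0 in the line titled MKK2-EE4 (circles), in the line titled MKK2-w.t.4 (triangles) and in Col-0 (squares), 1 array each, in order of the ratio of the line titled MKK2-EE4 over Col-0. The ratios lie between 2.99-fold for AT3G07350 and 10.5-fold for EXO, and every circle is right of its square.

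The few named touch and wounding genes were mostly higher, in a list chosen with earlier results of these data known. Of 20 such genes, 5 have a named probe set, 3 stood at least 2-fold above Col-0 in the line titled MKK2-EE4, none was lower, and their median log2 ratio was 1.59. EXO is counted among them. CML38, a calmodulin-like protein that senses calcium, had a signal of 170.0 in the line titled MKK2-EE4, 267 in the line titled MKK2-w.t.4 and 28.0 in Col-0, a 6.08-fold difference. STZ, a zinc finger repressor induced by cold, salt and wounding, had signals of 1805, 2751 and 599 in the same order of arrays, 3.01-fold above Col-0. ORA47, an AP2/ERF activator of jasmonate synthesis, had 249 in the line titled MKK2-EE4 against 150.1 in the line titled MKK2-w.t.4 and 150.2 in Col-0, so it stood above Col-0 on the array titled MKK2-EE4 but not on the other MKK2 array. CML37, a relative of CML38, was under the floor in the line titled MKK2-EE4 and in Col-0. STZ is also the 1 cold response gene of 5 named that was 2-fold higher; COR47, a dehydrin, had 230 in the line titled MKK2-EE4 and 143 in Col-0, and COR15A, a chloroplast protein of cold tolerance, had 31.9 and 38.3.

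Calcium sensors pointed both ways. Of the 32 named calmodulin-like genes, 15 lay under the floor on both arrays, 2 were 2-fold higher and 1 was lower, and at 1.5-fold there were 4 each way. CML23 joined CML38 among the higher ones, with 110.0 in the line titled MKK2-EE4, 178 in the line titled MKK2-w.t.4 and 49.7 in Col-0. AT3G25600 had 323 in the line titled MKK2-EE4 against 197 in Col-0, and AT5G39670 had 201 against 124. On the lower side, AT2G41090 had signals of 1562 in the line titled MKK2-EE4, 2418 in the line titled MKK2-w.t.4 and 2481 in Col-0. CML42, which restrains trichome branching, had 98.4 against 148 in Col-0. AT3G47480, a dim member named after its values were seen, was at least 2.12-fold lower. Of the CBP60 proteins, which bind calmodulin and include activators of salicylic acid synthesis, 5 are named, none was higher, and AT5G57580 was 2.07-fold lower, with 87.2 in the line titled MKK2-EE4 and 180 in Col-0.

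Among transcription factors, the AP2/ERF family, which holds the ethylene response factors, had members above Col-0. Of 47 named genes, 26 reached the floor, 3 were 2-fold higher and none was lower. AT1G77640 had signals of 116 in the line titled MKK2-EE4 and 196 in the line titled MKK2-w.t.4, against 33.7 in Col-0, which makes it 3.45-fold higher. AT5G61590 had 880, 957 and 413 in that order, a 2.13-fold difference. AT1G33760, dimmer than 100 on the arrays compared and named after its values were seen, was at least 3.90-fold higher, with 97.4 in the line titled MKK2-EE4 and 2.99 in Col-0. The member furthest below was AT2G44940, with 61.5 in the line titled MKK2-EE4 and 95.6 in Col-0. WRKY22, an immune transcription factor that acts below a MAP kinase cascade, had 113 in the line titled MKK2-EE4, 159 in the line titled MKK2-w.t.4 and 45.0 in Col-0. WRKY53, a WRKY factor of defence and senescence, had 70.3, 177 and 70.0, so it was level with Col-0 on the array titled MKK2-EE4. AT3G56880, the 1 VQ motif gene of 14 named that reached 2-fold, had 1336 in the line titled MKK2-EE4 and 611 in Col-0; VQ proteins bind WRKY factors.

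Of the jasmonate list 2 of 30 genes are named and of the ethylene list 4 of 31, and those furthest above Col-0 are outputs of these hormones. PDF1.2, a defensin gene induced by both hormones together, had signals of 519 in the line titled MKK2-EE4, 275 in the line titled MKK2-w.t.4 and 70.1 in Col-0. The probe set of PDF1.2b, which may read related defensins too, had 975, 552 and 139. Both were higher on the array titled MKK2-EE4 than on the other MKK2 array, and the other 3 named defensins lay under the floor on the arrays compared. Of the 4 named ethylene genes the remaining ones were PDF1.4, under the floor, and EIN3, the central transcription factor of ethylene signalling, with 418 in the line titled MKK2-EE4 and 579 in Col-0.

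The JOX enzymes hydroxylate jasmonic acid and so take hormone out of the active pool. All 4 are named; 3 were 1.5-fold or more higher in the line titled MKK2-EE4, 1 of these 2-fold, and the remaining one lay under the floor. AT5G05600 had signals of 152 in the line titled MKK2-EE4, 183 in the line titled MKK2-w.t.4 and 27.7 in Col-0, a 5.51-fold difference. AT2G38240 had 58.8, 64.2 and 37.5 in that order of arrays, and JRG21 had 40.1, 21.5 and 2.46 in Col-0, the last of these under the floor. Both are dim, and a difference between dim signals is uncertain. Serine protease inhibitors, many of which are induced by wounding and jasmonate, had 6 named genes, of which 2 were 2-fold higher and none lower. AT2G38870 had 221 in the line titled MKK2-EE4, 209 in the line titled MKK2-w.t.4 and 105 in Col-0. AT2G43530 had 192 on either MKK2 array and 91.7 in Col-0.

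Of 4 named salicylic acid genes none was 2-fold higher and 1 was lower. This was AT5G03350, a lectin-like gene induced by salicylic acid, which also led all named genes below Col-0, with 142 in the line titled MKK2-EE4, 434 in the line titled MKK2-w.t.4 and 510 in Col-0. SAG101, a partner of the immune regulator EDS1, and GRX480, a glutaredoxin induced by salicylic acid, had signals of 22.9 and 16.7 in the line titled MKK2-EE4, both under the floor, and log2 ratios of -0.30 and -0.06 that are bounds. Ankyrin repeat membrane proteins, a family that includes the defence gene ACD6, had 23 named genes, of which none was 2-fold higher and 1 lower. That 1 was AT1G10340, with 52.5 in the line titled MKK2-EE4 and 118 in Col-0, a 2.24-fold difference, while the line titled MKK2-w.t.4 had 170. AT2G24600 of the same family had 262 in the line titled MKK2-EE4 against 146 in Col-0, and AT4G03450 had 57.6 against 93.3.

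Genes of pattern-triggered immunity, the response to conserved microbial molecules, gave 2 higher and no lower of 6 named at 2-fold. Next to WRKY22 this was PUB23, dimmer than 100 in the line titled MKK2-EE4, with 88.1 there, 202 in the line titled MKK2-w.t.4 and 31.2 in Col-0. PUB22, PUB23 and PUB24 are related ubiquitin ligases that restrain this response. Their directions differed: PUB22 had 27.0 in the line titled MKK2-EE4 and 17.1 in Col-0, and PUB24 had 64.2 and 113. BIK1, a kinase that relays the signal from immune receptors, had 137 in the line titled MKK2-EE4 and 101 in Col-0, and EFR, an immune receptor, was under the floor. Over the whole U-box ligase family, 31 genes are named, 2 were 2-fold higher and none lower. PUB19 had 178 in the line titled MKK2-EE4, 181 in the line titled MKK2-w.t.4 and 79.5 in Col-0. PUB26 and PUB25, which control the turnover of BIK1, had 122 and 67.3 in the line titled MKK2-EE4 against 64.9 and 44.5 in Col-0.

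The TIR domain family, which holds intracellular immune receptors and shorter relatives, was split. Of 81 named genes, 40 lay under the floor on both arrays, 4 were 2-fold higher and none was 2-fold lower, while at 1.5-fold 5 were higher and 6 lower. AT1G72920 had signals of 235 in the line titled MKK2-EE4, 216 in the line titled MKK2-w.t.4 and 53.6 in Col-0, a 4.38-fold difference. AT1G72940 had 379, 498 and 125, and AT1G66090 had 198, 273 and 70.8. Together with AT1G72900, which had 154 in the line titled MKK2-EE4 and 59.7 in Col-0, 3 of these 4 genes lie in a stretch of neighbouring genes on chromosome 1 in the TAIR10.1 assembly. From AT1G72840 to AT1G72950 that stretch has 12 protein-coding loci, of which 9 are named on the array. Of the other 6 named loci, AT1G72890 had 64.6 in the line titled MKK2-EE4 and 45.5 in Col-0, and AT1G72950 was at least 1.21-fold higher, with 30.2 against 3.77. AT1G72840 and AT1G72850 were under the floor on these arrays, and AT1G72860 and AT1G72870 were at least 1.60-fold and 1.48-fold lower. Since these genes are similar in sequence, a probe set may read more than 1 of them. Below Col-0, CSA1, a TIR-type immune receptor, had 81.4 in the line titled MKK2-EE4 and 132 in Col-0, and AT4G36150 had 38.4 and 69.6.

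Smaller families of membrane and stress proteins had their higher members too. Of 20 named NDR1/HIN1-like proteins, membrane proteins linked to immunity, AT2G27080 alone was 2-fold higher, with 216 in the line titled MKK2-EE4, 386 in the line titled MKK2-w.t.4 and 50.8 in Col-0. PADRE domain proteins are known for responses to pathogens and stress. Of 16 named, 3 were 2-fold higher and none lower. AT4G37240 had 310 in the line titled MKK2-EE4, 478 in the line titled MKK2-w.t.4 and 118 in Col-0. AT5G17350 had 185, 285 and 72.1, and AT1G76600 had 502, 844 and 215. All 3 were between 2.34-fold and 2.64-fold above Col-0. AT5G62900 lay below Col-0, with 55.3 in the line titled MKK2-EE4 and 98.7 in Col-0.

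DUF506 proteins are a family defined by a domain of unknown function. Among families with 5 or more members reaching the floor, they had the highest share of 2-fold genes. The families were drawn up after values were seen, so this rank only describes the families listed. Of 6 named, 3 were 2-fold higher, none was lower, and the median log2 ratio was 0.78. AT2G20670 had signals of 957 in the line titled MKK2-EE4, 698 in the line titled MKK2-w.t.4 and 201 in Col-0. AT3G07350 had 307, 240 and 103, and AT2G39650 had 151, 265 and 51.1. The other members that reached the floor, AT2G38820 and AT3G22970, had log2 ratios of -0.19 and -0.16.

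Cell wall and transport genes also had 2-fold members. Of 14 named genes of cell wall expansion, 2 were 2-fold higher and none lower. EXLA1, an expansin-like protein, had 177 in the line titled MKK2-EE4, 188 in the line titled MKK2-w.t.4 and 38.1 in Col-0. XTH18, an enzyme that cuts and rejoins xyloglucan, was at least 3.28-fold higher, with 82.0 in the line titled MKK2-EE4 and 18.7 in Col-0; it is dimmer than 100 and was named after its values were seen. Other members were closer to Col-0, with EXPA8 at 513 in the line titled MKK2-EE4 against 555 in Col-0 and XTH32 at 247 against 197. Among 23 named pectate lyases, which cleave pectin, none reached 2-fold. AT5G63180 had 249 in the line titled MKK2-EE4, 245 in the line titled MKK2-w.t.4 and 436 in Col-0, and AT3G07010 had 219, 247 and 334.

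MATE carriers export small molecules from the cell or into the vacuole. Of 37 named, 22 reached the floor on 1 of the arrays, and 18 of these lay above Col-0 and 4 below. The share of all genes above Col-0 is not given here, so these counts have no background. At 2-fold, 4 of the 37 were higher and none lower, where 0.674% of named genes were higher and 0.337% lower. AT1G61890 had signals of 326 in the line titled MKK2-EE4, 260 in the line titled MKK2-w.t.4 and 74.7 in Col-0, a 4.36-fold difference. AT3G23550 had 121, 123 and 58.8. The other 2 are dimmer than 100 and were named after their values were seen: AT5G52050 was at least 3.75-fold higher, with 93.8 against a signal just under the floor in Col-0, and AT1G66760 was 2.39-fold higher, with 82.2 against 34.4.

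**Figure D3:**
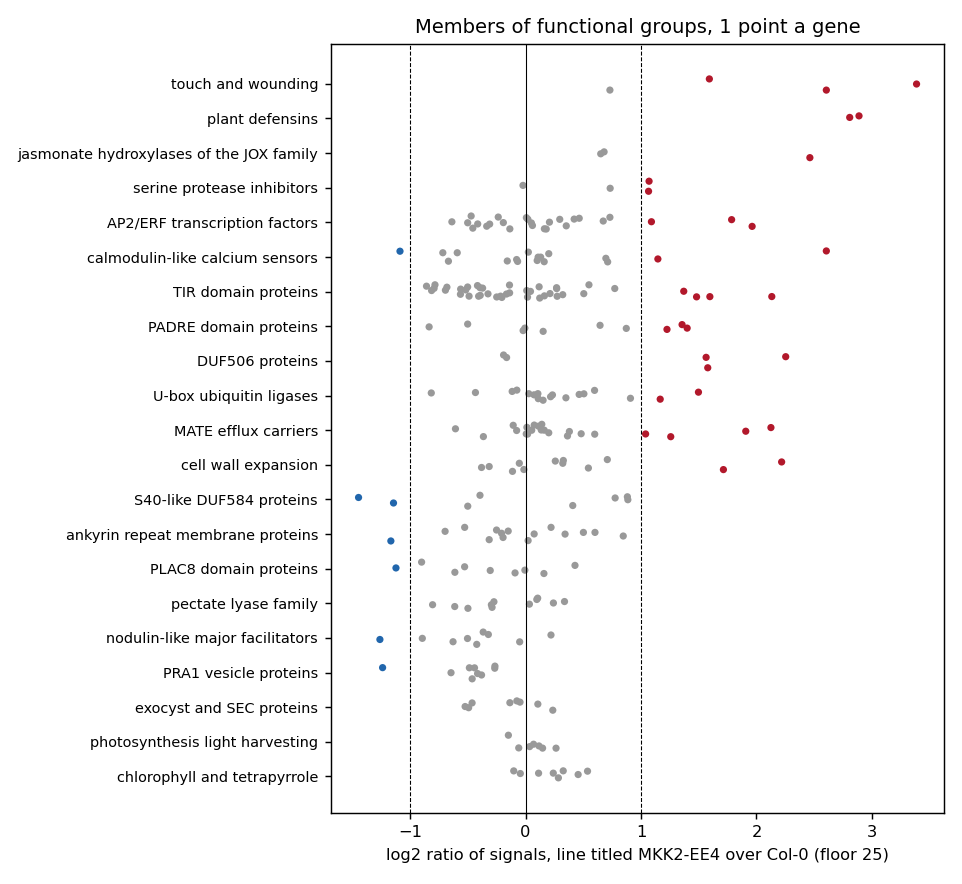
Log2 ratio of signals in the line titled MKK2-EE4 over Col-0 for the members of 21 gene groups, 1 point a gene, without genes under the floor of 25 on both arrays; dashed lines mark 2-fold. Red points are 2-fold or more higher and blue points 2-fold or more lower; touch genes and defensins reach furthest right, and all 9 points of the PRA1 proteins lie left of 0.

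Among named genes with a signal of at least 100, the furthest differences below Col-0 were smaller than the furthest above it. The 25 named genes with the lowest ratios lay between 1.94-fold and 3.58-fold below Col-0. Their median log2 ratio, for which they were picked, was -1.12 in the line titled MKK2-EE4. In the line titled MKK2-w.t.4, which had no part in the choice, it was -0.59. In the plot of these genes the array titled MKK2-w.t.4 often stands close to Col-0 where the array titled MKK2-EE4 does not. Genes chosen as lowest on 1 array tend to lie nearer Col-0 on another, so these values cannot show a difference between the lines. AT3G22240 had signals of 1342 in the line titled MKK2-EE4, 3909 in the line titled MKK2-w.t.4 and 4485 in Col-0. AT1G19960 had 54.3, 134 and 162, and AT3G60450 had 58.4, 118 and 127. For others both MKK2 arrays were below Col-0, as for AT1G47970 with 37.7, 32.5 and 102, and AT1G13640, of the phosphatidylinositol kinase family, with 155, 179 and 311.

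**Figure D4:**
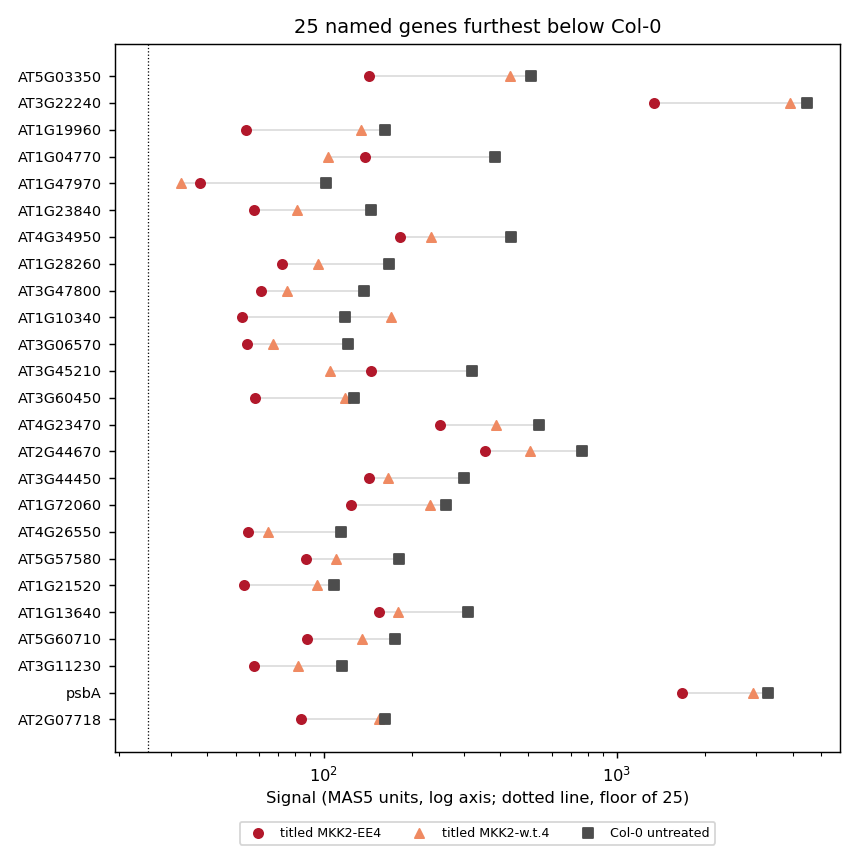
Signals (log axis) of the 25 named genes with the lowest ratios, in the line titled MKK2-EE4 (circles), in the line titled MKK2-w.t.4 (triangles) and in Col-0 (squares), 1 array each, in order of the ratio of the line titled MKK2-EE4 over Col-0. Every circle is left of its square, by 1.94-fold to 3.58-fold, and for AT1G10340 the triangle is right of the square.

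The lower genes came from several processes, with 1 or 2 members of a group past 2-fold in each. In sulphur supply, 5 genes are named and 1 was lower. AT1G04770, a relative of the sulphur deficiency-induced protein SDI1, had signals of 138 in the line titled MKK2-EE4, 103 in the line titled MKK2-w.t.4 and 384 in Col-0. The enzymes that take up sulphate into metabolism were nearer to Col-0: the sulphite reductase SIR had 877 in the line titled MKK2-EE4 and 1012 in Col-0, and the ATP sulphurylases APS3 and APS4 had log2 ratios of 0.08 and -0.19. In light signalling, 3 genes are named and 1 was lower. AT3G44450, known as BIC2, an inhibitor of the blue light receptor cryptochrome, had 143, 165 and 301 on the 3 arrays in the same order. Its close relative AT3G52740, known as BIC1, had 56.5 in the line titled MKK2-EE4 and 59.1 in Col-0.

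S40-like proteins, a family first described in senescence, lay on both sides of Col-0. Of 11 named, 2 were 2-fold lower and none higher, while at 1.5-fold 3 were higher. AT3G45210 had 145 in the line titled MKK2-EE4, 105 in the line titled MKK2-w.t.4 and 320 in Col-0. AT1G11700, dimmer than 100 and named after its values were seen, had 25.2 in the line titled MKK2-EE4 and 68.5 in Col-0. AT5G60680 was above Col-0, with 697 in the line titled MKK2-EE4 and 377 in Col-0, and AT2G28400 had 133 against 72.2. FCS-like zinc finger proteins, which bind the energy sensor kinase SnRK1, had 12 named genes, none higher and 1 lower. AT2G44670 had 355 in the line titled MKK2-EE4, 505 in the line titled MKK2-w.t.4 and 763 in Col-0. PLAC8 domain proteins, some of which act in metal transport and organ size, had 12 named genes, none higher and 1 lower. AT4G23470 had 250 in the line titled MKK2-EE4, 388 in the line titled MKK2-w.t.4 and 544 in Col-0, and AT1G52200 had 82.0, 137 and 153.

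Nodulin-like transporters and PRA1 vesicle proteins lay mostly below Col-0. The share of all genes below Col-0 is not given here, so the counts of members below it have no background. The median log2 ratio over named genes with a signal of at least 100 was -0.04. Of 9 nodulin-like major facilitators that reached the floor, 8 lay below Col-0 and 1 above, with a median log2 ratio over the 10 named of -0.39. AT4G34950 had signals of 182 in the line titled MKK2-EE4, 233 in the line titled MKK2-w.t.4 and 437 in Col-0, a log2 ratio of -1.26. AT2G39210 had 136, 293 and 252, and AT5G14120 had 2705, 2920 and 3625. PRA1 proteins, which receive Rab proteins on vesicles between the endoplasmic reticulum and the Golgi, had 9 genes that reached the floor, and all 9 lay below Col-0. Their median log2 ratio over 11 named was -0.42, and 1 of them was 2-fold lower. PRA8 had 270 in the line titled MKK2-EE4, 295 in the line titled MKK2-w.t.4 and 367 in Col-0, and PRA7 had 129, 127 and 178. PRA1.H, dimmer than 100 and named after its values were seen, was at least 2.36-fold lower, with 23.4 against 58.9 in Col-0. Subunits of the exocyst and related SEC proteins, which tether vesicles at the plasma membrane, had 9 named genes, none past 1.5-fold. EXO84B and SEC10 had log2 ratios of -0.52 and -0.49.

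Sugar carriers showed single members on either side. Among 14 named SWEET carriers none reached 2-fold. SWEET17, a fructose carrier of the vacuole, had 216 in the line titled MKK2-EE4, 324 in the line titled MKK2-w.t.4 and 140 in Col-0, and SWEET1 had 171, 158 and 267. SWEET11, which exports sucrose for phloem loading, had 1212 in the line titled MKK2-EE4 and 1520 in Col-0. Of 4 named STP hexose carriers, AT5G61520 had 73.7 in the line titled MKK2-EE4 and 136 in Col-0. AT3G47800, of the aldose epimerases that interconvert sugar forms, was 2.25-fold lower, with 60.9 against 137, and was the 1 lower gene of 9 named.

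Secondary metabolism, protein quality control and autophagy had single members past 1.5-fold on either side. Of 5 named glucosinolate genes, 2 were 1.5-fold higher and none lower, and of 4 named heat shock genes 1 was lower. Over all named genes, 2.66% were 1.5-fold higher and 2.61% lower. GTR1, a glucosinolate transporter that also carries jasmonate and gibberellin, had 239 in the line titled MKK2-EE4, 243 in the line titled MKK2-w.t.4 and 120 in Col-0, a 1.98-fold difference just under the threshold. AT2G31790, a glucosyltransferase gene, had 195 in the line titled MKK2-EE4 and 121 in Col-0. Of 224 listed cytochromes P450 only 21 are named, most of them of the CYP71B subfamily. Among these 21, 3 were 1.5-fold higher and 1 was 2-fold lower. This was CYP71B23, dimmer than 100 and named after its values were seen, with 35.5 in the line titled MKK2-EE4, 83.1 in the line titled MKK2-w.t.4 and 91.0 in Col-0. Hsp70-2, a heat shock chaperone, had 83.8, 136 and 155. ATG8E, a ubiquitin-like protein of autophagosomes, had 295, 271 and 466, while the other 8 named ATG8 genes stayed within 1.5-fold. TET8, a tetraspanin of extracellular vesicles, had 1434, 1696 and 801. AT1G73480, a monoacylglycerol lipase, was 2.71-fold higher, with 445 in the line titled MKK2-EE4 and 164 in Col-0, and was the 1 higher gene of 15 named in its family.

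The named photosynthesis genes of the nucleus lay near Col-0. Of 39 listed, 7 are named, and these are light-harvesting and photosystem genes and the rubisco activase RCA. Their log2 ratios lay between -0.15, for RCA, and 0.26. LHCB4.1 had 5838 in the line titled MKK2-EE4 and 5384 in Col-0. The 8 named genes of chlorophyll and haem synthesis ran from -0.10 to 0.54, with a median of 0.26 against -0.04 over named genes of signal at least 100. HEME1 and HEME2, the uroporphyrinogen decarboxylases, were the furthest above, with 346 and 541 in the line titled MKK2-EE4, 222 and 393 in the line titled MKK2-w.t.4, and 239 and 395 in Col-0. PORB, the light-dependent protochlorophyllide reductase, had 529 in the line titled MKK2-EE4, 192 in the line titled MKK2-w.t.4 and 435 in Col-0.

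The plastid genome is read by its own polymerase as well as a nuclear one, and encodes core subunits of the photosystems. Of 85 plastid genes, 69 are named, 63 of these had a log2 ratio within 0.5 of 0, and the median was -0.07. At 2-fold, 2 were higher and none lower. psbB, which encodes the CP47 antenna protein of photosystem II, had signals of 1027 in the line titled MKK2-EE4, 894 in the line titled MKK2-w.t.4 and 407 in Col-0. rbcL, the large subunit of rubisco, had 763, 925 and 366. psbK, a small photosystem II subunit, had 3481, 2093 and 1757, so it was higher on the array titled MKK2-EE4 than on both others. petG, of the cytochrome b6f complex, had 187, 265 and 95.5. psbA, which encodes the D1 reaction centre protein that is replaced after light damage, was the lowest, with 1674 in the line titled MKK2-EE4, 2934 in the line titled MKK2-w.t.4 and 3297 in Col-0. psbB is transcribed together with psbT, psbH, petB and petD, and these had log2 ratios of 0.37, -0.07, -0.02 and 0.02 against 1.33 for psbB. The 15 photosystem II genes thus held both ends of the range, as the plot by complex shows, with a median of -0.15, while the genes of photosystem I, ATP synthase, the NDH complex and the RNA polymerase all lay between -0.24 and 0.30.

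**Figure D5:**
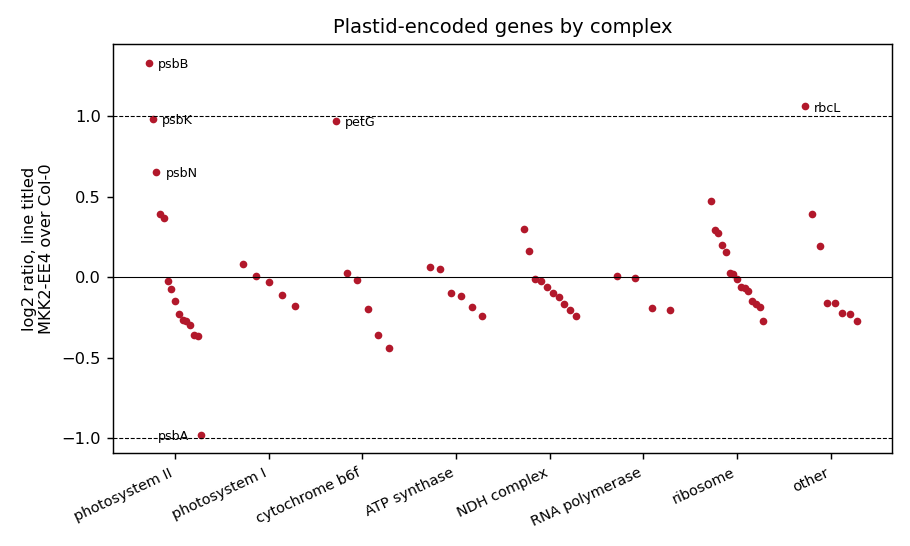
Log2 ratio of signals in the line titled MKK2-EE4 over Col-0 for 69 plastid-encoded genes, 1 point a gene, sorted within each complex, with dashed lines at 2-fold. psbB and rbcL lie above the upper line, psbK and petG just under it, and psbA just above the lower one.

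Markers of cell types were thinly covered. Of 6 mesophyll markers the 3 named, LHCB4.1, RCA and PSAE-1, had log2 ratios of 0.12, -0.15 and 0.26, with signals between 4324 and 5899 on both arrays. The guard cell gene AT1G22690 had 290 in the line titled MKK2-EE4 and 375 in Col-0, and FMA, a stomatal transcription factor, had 52.4 and 55.0. The root hair gene EXPA7 and the meristem gene CLV3 were under the floor on all arrays, and no trichome, epidermis, phloem, xylem or seed marker is named. Whether the share of guard cells had a part in the results was not tested. The reference genes PEX4, GAPC2 and TUB6 had log2 ratios of -0.01, -0.10 and -0.41, with 424 for TUB6 in the line titled MKK2-EE4 and 563 in Col-0.

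Other groups had no gene past 2-fold in either direction. They include the named genes of auxin (5 of 39 listed), gibberellin (4 of 22), flavonoids (5 of 28) and iron and metal supply (3 of 28). Others are those of cell division (4 of 31), cell wall synthesis (4 of 29), the unfolded protein response of the endoplasmic reticulum (3 of 17) and senescence (6 of 18). The glutathione S-transferases (14 of 43), beta-glucosidases (20 of 40) and UDP-glycosyltransferases (47 of 58) belong here as well. At 1.5-fold, BGLU40 was higher among the beta-glucosidases, with 254 in the line titled MKK2-EE4 and 153 in Col-0. No gene of the abscisic acid and drought, salt, oxidative stress, phosphate or nitrogen lists is named on the array, so the salt response, a known field of MKK2, was not analysed here.

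Part of the difference between the arrays lay in probe sets that name no single gene. They make up 124 of the 214 higher probe sets and 77 of the 122 lower ones. Such probe sets are common: of the 22746 compared, 8730 carry no gene name and 503 name several genes. Among unnamed probe sets with a signal of at least 100, 86 were higher and 36 lower, of 3133. For named ones of such signal the counts were 70 and 21, of 3254. The 3 unnamed ones furthest above Col-0 were 245757_at, 266142_at and 248964_at. Probe set 245757_at had signals of 713 in the line titled MKK2-EE4, 975 in the line titled MKK2-w.t.4 and 60.9 in Col-0, and 248964_at was 6.94-fold higher than Col-0. Probe set 266142_at was at least 7.28-fold higher, with 182 in the line titled MKK2-EE4 and 14.9 in Col-0. The 3 furthest below, picked for their ratio to Col-0, were also far below the other MKK2 array. Probe set 262832_s_at had 54.4 in the line titled MKK2-EE4, 523 in the line titled MKK2-w.t.4 and 478 in Col-0, an 8.79-fold difference from Col-0. Probe set 266385_at had 41.4, 299 and 213, and 265837_at had 48.0, 307 and 226. These ratios exceed the 3.58-fold of the lowest named gene.

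Genes close to the 2-fold limit show how little separates the counts. AT5G62140 lay just inside, with 140.0 in the line titled MKK2-EE4 and 69.6 in Col-0, and GTR1 just outside. On the lower side AT1G13640 lay just inside with a log2 ratio of -1.01, and AT5G60710 just outside with 87.5 in the line titled MKK2-EE4 and 175 in Col-0.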

How the data were processed

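Total RNA was hybridised to 1 Affymetrix ATH1-type array for each of 3 genotypes. The authors deposited 1 intensity per probe set on a linear scale, made with MAS5 per the submitters' processing notes; no version, detection calls or genome build were stated. The mean after trimming 2% at each end was 100.01 on every array. Each array was rescaled to 100, signals under 25 were set to 25, and log2 ratios were taken; 64 control probe sets were left out of 22810. Ratios with 1 signal under that floor are bounds. With 1 array a group no test was run, and the number of arrays limits the precision.

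Names came from the platform annotation, updated to TAIR10.1: 13513 probe sets name 1 gene, 503 several and 8730 none. Of the first, 13436 matched a locus and 11885 carry only a locus tag, whose roles given here are background knowledge. Probe sets ending in _s_at or _x_at number 1061. Where a gene has several probe sets the brightest stands for it. None of the 147 such genes had a 2-fold probe set with a signal of at least 100.

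Members and lists were chosen with earlier results of these data known. Families were planned by words in gene descriptions, which the reference table lacks, and were drawn up by locus or symbol from general knowledge after values were seen. Named genes are, at a signal of at least 100, the 25 highest and 25 lowest, up to 4 members each way of a group at 1.5-fold or else its brightest, and 3 unnamed probe sets each way; exceptions are marked, and further dim or unremarkable members stand beside them for contrast. Alternatives were the deposited signals as they stand, loess centring with a span of 0.4, quantile normalization, a pseudocount of 16, floors of 10 and 50, thresholds of 1.5-fold and 3-fold, other probe set filters, exchanged MKK2 arrays, and for groups the mean. Software was Python 3.11.15, numpy 2.4.6, pandas 2.3.3, scipy 1.17.1, statsmodels 0.14.6 and matplotlib 3.10.9.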

Additional observations from a re-analysis of the deposited data

Results flagged for a closer look

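The control probe set for 25S ribosomal RNA, which no comparison uses, was 2.09-fold above Col-0 in the line titled MKK2-EE4. Its signals were 60.6 in the line titled MKK2-EE4, 44.8 in the line titled MKK2-w.t.4 and 28.9 in Col-0, the last of these near the floor of 25.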

How the results depend on the processing

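The counts of 214 higher and 122 lower probe sets depended most on dim signals and on the threshold. There were 405 higher and 360 lower with a floor of 10, and 701 and 709 at 1.5-fold, so the share that was higher was 52.9% and 49.7% in place of 63.7%. The threshold of 3-fold gave 69 higher and 17 lower. A floor of 50 gave 57 lower and 159 higher, a share of 73.6%. Taking only probe sets with a signal of at least 100 gives the same counts by construction, since a 2-fold ratio above a floor of 50 needs such a signal. Loess centring gave 236 and 98, a share of 70.7%, and no rescaling, quantile normalization, the pseudocount and leaving out probe sets that can read several genes stayed within 1.5 times of both counts. None of these moved the median of all genes by over 0.1. Of 141 named genes, none moved by over 1.5-fold under the scalings, the floor of 10 or the pseudocount, and CML38 and AT5G05600 did under the floor of 50, to log2 ratios of 1.77 and 1.61. With the MKK2 arrays exchanged, as the source names have them, 103 kept their value within 1.5-fold, 37 moved, and AT1G10340 had 0.53 in place of -1.17. Of 69 group medians, that of the JOX enzymes was 1.33 under the floor of 10, and the defensins had a mean of 1.14 in place of a median of 0. No paired analysis was possible because each group has 1 array, so the groups share only replicate number 1. The causes were not tested.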

Other observations

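Of 5818 pairs of adjacent protein-coding genes in the TAIR10.1 assembly with both genes named, 1 pair was 2-fold from Col-0 in the same direction at both genes, where 0.674% of named genes were 2-fold higher and 0.337% lower. It is AT4G23470, a PLAC8 gene described above, and AT4G23490, with log2 ratios of -1.12 and -1.02.

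ESCRT vesicle sorting genes, ubiquitin-specific proteases and methionine sulfoxide reductases had a few members past 1.5-fold, and none reached 2-fold. Over all named genes, 2.66% were 1.5-fold higher and 2.61% lower. Of 12 named ESCRT genes, 2 were 1.5-fold higher and none was lower. VPS2.1, of the ESCRT machinery that sorts membrane proteins into multivesicular bodies, had 143 in the line titled MKK2-EE4 and 79.1 in Col-0. Of 12 named ubiquitin-specific proteases, 2 were 1.5-fold higher and 1 was lower. UBP23 had 118 in the line titled MKK2-EE4 and 68.9 in Col-0, and the lower one, UBP18, had 44.2 and 73.5. MSRB6, a methionine sulfoxide reductase that repairs oxidised proteins, had 114 in the line titled MKK2-EE4 and 61.5 in Col-0. It was the 1 gene of 5 named in its family past 1.5-fold.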
